A study of Mus musculus with 8 samples.

Results

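A pair of chromatin readouts of gene starts was set against each other in mouse skeletal muscle: a peak of RNA polymerase II (Pol2) and a peak of trimethylation of lysine 4 on histone H3 (H3K4me3). A gene counted as having a peak when any base of it lay within 1 kb of any transcription start site (TSS) of the gene. Of 21938 protein-coding genes of the GENCODE annotation of GRCm38 (mm10), 10265 had both peaks (46.8%), 3221 had H3K4me3 without Pol2 (14.7%), 57 had Pol2 without H3K4me3 (0.26%), and 8395 had neither. Chromatin immunoprecipitation with sequencing (ChIP-seq) had been done on nuclei from skeletal muscle of WT mice of the strain C57/Bl6J, at an age of 10 to 12 weeks, and no group carried a treatment or an altered allele by its labels. Each antibody gave 1 library, so the series has no replicates, and the number of animals behind a library is not stated. Input 1 went with Pol2, H3K27ac, H3K4me1 and the glucocorticoid receptor (GR), and Input 2 with H3K4me3 and CTCF. A difference between the Pol2 and the H3K4me3 list therefore cannot be told apart from a difference between the inputs or in read depth, which is unknown for these libraries.

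Pol2 transcribes protein-coding genes, and its density is usually highest where it assembles and pauses just past the start site. H3K4me3 is laid down on the nucleosomes flanking active or poised starts by the SET1 and MLL methyltransferases, and unmethylated CpG dinucleotides attract those enzymes through CXXC-domain proteins. Acetylation of lysine 27 on histone H3 (H3K27ac) accompanies active promoters and enhancers, and at silent developmental genes H3K4me3 can instead stand together with Polycomb methylation of lysine 27, which was not among the antibodies here.

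The tissue label was checked against marker genes. All 8 markers of muscle fibres (Acta1, Ckm, Ttn, Neb, Des, Atp2a1, Tnnt3 and Mylpf) had both peaks, against 46.8% of all genes. In longer lists 22 of 24 fast or common sarcomere genes had both, but only 4 of 17 slow or cardiac ones, of which 9 had neither. The 3 liver, 3 neuron and 3 adipocyte markers had neither peak, against 38.3% of all genes. Longer lists had neither peak in all 14 liver genes, but in only 7 of 11 neuron genes and 7 of 10 adipocyte genes. Of the 11 neuron genes 1 had both and 3 had H3K4me3 without Pol2. Of the 10 adipocyte genes 2 had both and 1 had H3K4me3 without Pol2. Of 5 endothelial markers, 2 had both peaks and 3 had H3K4me3 without Pol2, and 4 of 5 fibro-adipogenic markers had both. Of 5 immune markers, none had both and 3 had neither, of 3 satellite cell markers none had both and 2 had neither, and of 3 Schwann cell markers 1 had both and 2 had neither. In whole muscle, a peak carried by few nuclei and a weak peak in many nuclei cannot be told apart.

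The classes differed in the letters in front of their starts, with wide variation inside each class. The 150 bases upstream of the start are shown for 7 genes, because they span CpG-dense to CpG-poor starts (RefSeq promoters, GRCm38, with every CG dinucleotide in capitals). They were chosen after their values were seen, and none of the windows holds an exon. Myh4 encodes the fast IIb myosin heavy chain (chr11:67237662-67237811, + strand), Gapdh a glycolytic enzyme (chr6:125165774-125165923, − strand) and Btaf1 a regulator of the TATA-binding protein (chr19:36925929-36926078, + strand). These 3 genes had both peaks. The proliferation genes Mki67 (chr7:135716380-135716529, − strand) and Top2a (chr11:99024190-99024339, − strand) had H3K4me3 without Pol2. Myh2, the fast IIa myosin heavy chain (chr11:67170877-67171026, + strand), and Ecm1, an extracellular matrix protein (chr3:95739570-95739719, − strand), had Pol2 without H3K4me3.
Myh4: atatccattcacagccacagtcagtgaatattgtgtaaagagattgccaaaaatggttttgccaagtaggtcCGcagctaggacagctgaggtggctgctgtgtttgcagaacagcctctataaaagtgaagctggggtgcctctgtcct
Gapdh: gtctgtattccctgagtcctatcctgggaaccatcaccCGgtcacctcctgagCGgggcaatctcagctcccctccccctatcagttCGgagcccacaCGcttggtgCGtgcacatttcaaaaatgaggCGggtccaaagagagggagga
Btaf1: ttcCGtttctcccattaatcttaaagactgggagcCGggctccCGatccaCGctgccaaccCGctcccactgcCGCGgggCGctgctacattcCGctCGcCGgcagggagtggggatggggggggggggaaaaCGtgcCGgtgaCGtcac
Mki67: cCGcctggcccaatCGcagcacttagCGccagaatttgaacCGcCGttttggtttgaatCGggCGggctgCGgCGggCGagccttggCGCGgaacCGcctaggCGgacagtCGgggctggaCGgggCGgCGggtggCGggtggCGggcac
Top2a: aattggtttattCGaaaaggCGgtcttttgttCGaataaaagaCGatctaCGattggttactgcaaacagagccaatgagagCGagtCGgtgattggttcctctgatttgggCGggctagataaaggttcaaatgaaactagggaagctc
Myh2: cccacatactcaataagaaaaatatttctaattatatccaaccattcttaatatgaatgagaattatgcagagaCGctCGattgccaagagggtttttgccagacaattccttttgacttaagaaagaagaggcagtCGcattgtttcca
Ecm1: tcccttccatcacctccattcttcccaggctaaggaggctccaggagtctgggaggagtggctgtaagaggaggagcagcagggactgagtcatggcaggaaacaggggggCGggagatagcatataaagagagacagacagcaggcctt
Mki67 held 20 CG dinucleotides, Btaf1 14, Top2a 8, Gapdh 6, Myh2 3, and Myh4 and Ecm1 1 each. Within these windows, Myh4 and Ecm1 held the letters TATAAA, beginning 31 and 27 bases before the start. Myh2 and Gapdh held none here, but both counted as having TATAAA in the search over any TSS reported further below. Over all RefSeq promoters matched to these genes, the median number of CG dinucleotides in this window was 11 for genes with both (10362 promoters), 8 for H3K4me3 without Pol2 (3084), 2 for Pol2 without H3K4me3 (56) and 1 for genes with neither (6648), against 7 over all 20150. Single genes departed from these medians: Mki67 was above the median of genes with both, and Myh4, which has both, was below the median of Pol2 without H3K4me3.

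Few Pol2 genes lacked H3K4me3 over the full lists, while the converse was common. A Pol2 peak was called at 47.1% of all genes and an H3K4me3 peak at 61.5%. Among the 10322 genes with Pol2, 99.4% also had H3K4me3 (95% interval 99.3 to 99.6). Among the 13486 genes with H3K4me3, 76.1% had Pol2 (75.4 to 76.8). These shares follow from the rule and carry no test. They depend on where each list ends: with the stronger 50% of H3K4me3 peaks, 1022 genes had Pol2 without H3K4me3 and 857 the converse, and with the peak midpoint required in the window 163 genes had Pol2 without H3K4me3. Intervals are at 95%, except those of ratios of medians. They are exact for shares (Clopper-Pearson) and for unstratified odds ratios and approximate for stratified ones. They cover the counting of genes only and take neighbouring genes as independent. At the border of the rule, Psd, Ccdc146 and Thbs3 had their nearest Pol2 peak 980, 982 and 987 bases from a TSS, and Ddias, Dtx4 and Pitx3 just missed it at 1006, 1014 and 1017 bases. For H3K4me3, Rnase13 missed by the smallest distance, at 1001 bases.

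The 2 peaks of a gene with both lay at the same place. In 10224 of the 10265 genes (99.6%) a Pol2 and an H3K4me3 peak shared at least 1 base. In 10257 genes both lay within 1 kb of the same TSS, and 8 genes qualified only through different TSS. To place the peaks, genes with a single TSS, 1 peak of each kind and no other protein-coding gene in the window were used. In 360 such genes the Pol2 midpoint lay at a median of 35 bases downstream of the TSS (interval of the median 26 to 44, quartiles -12.3 and 85). The H3K4me3 summit lay at a median of 198.5 bases downstream (182 to 212). Within a gene, the summit was downstream of the Pol2 midpoint in 87.2% of cases, by a median of 147.5 bases (134 to 166). In 386 genes with H3K4me3 without Pol2, the summit lay at a median of 179 bases downstream (157 to 195).

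**Figure D1:**
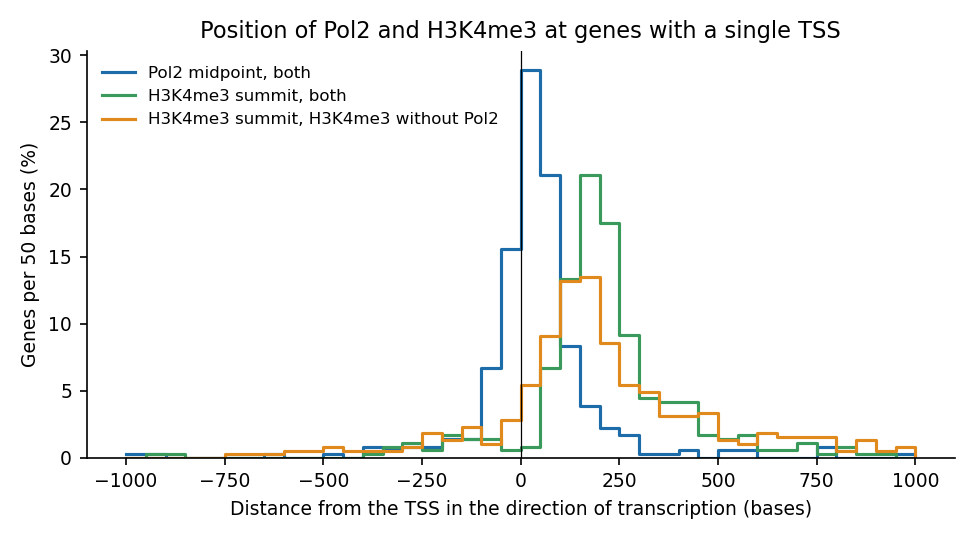
Distance in bases of the Pol2 peak midpoint and the H3K4me3 summit from the TSS, in the direction of transcription, as percent of genes per 50 bases, for 360 single-TSS genes with both peaks and 386 with H3K4me3 without Pol2. The Pol2 midpoints gather at the TSS (median 35 bases) and both sets of H3K4me3 summits lie further downstream (medians 198.5 and 179 bases).

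A gene with several promoters could hold both classes. Start sites closer together than 2000 bases were joined into clusters, and 6546 genes with both peaks had more than 1 cluster. In 468 of them (7.15%) at least 1 cluster carried H3K4me3 without Pol2. Most of the other clusters of these genes were bare: 13439 of 21187 clusters had neither peak. A further 150 clusters of these genes had Pol2 without H3K4me3. Over all genes, 207 of 44470 clusters had Pol2 without H3K4me3, whereas the rule over any TSS gave 57 such genes.

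The strength of H3K4me3 separated genes with and without Pol2. The measure was the fold of the strongest H3K4me3 peak within 1 kb, the authors' ratio of signal over background. Its median was 38.5 (interval 38.2 to 38.9, quartiles 28.6 and 48.2) with Pol2 and 12.1 (11.6 to 12.4, quartiles 7.10 and 20.1) without. The H3K4me3 peak was 1448 bases wide at the median with Pol2 and 782 bases without. By decile of fold, the share of H3K4me3 genes with Pol2 was 13.3% in the lowest (folds of 1.93 to 9.01), 61.9% in the third and 98.8% in the highest (53.9 to 87.9). The distributions overlapped: 16 genes of the highest decile had no Pol2 peak and 179 of the lowest had one.

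**Figure D2:**
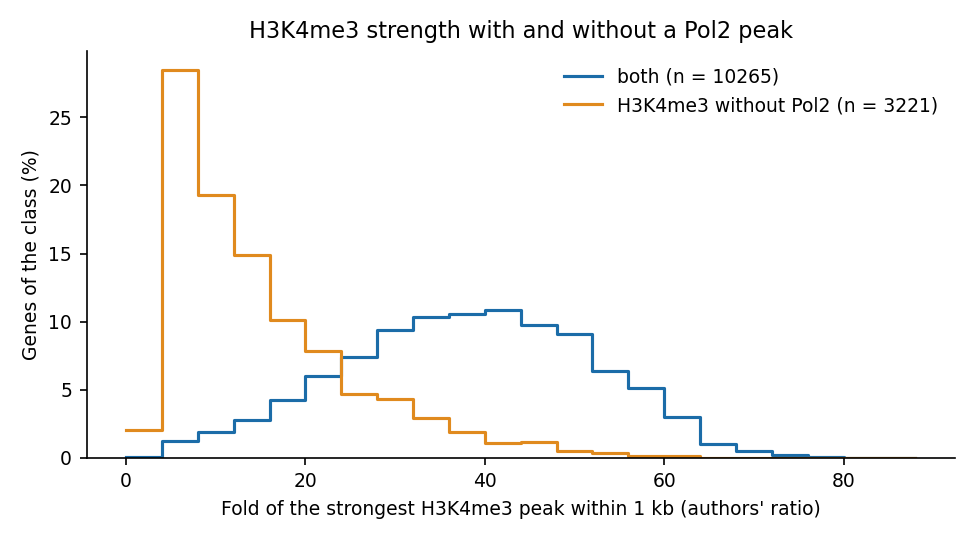
Fold of the strongest H3K4me3 peak within 1 kb of a TSS (the authors' ratio) on the horizontal axis and percent of genes of the class per bin on the vertical axis, for 10265 genes with both and 3221 with H3K4me3 without Pol2. The genes without Pol2 gather at low folds (median 12.1), those with Pol2 at higher ones (median 38.5), and the tails overlap.

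Other peaks, which the rule did not use, marked the classes further. H3K27ac, called at 52.4% of all genes, was present at 98.5% of genes with both (98.2 to 98.7) and at 39.1% of genes with H3K4me3 without Pol2 (37.4 to 40.8), an odds ratio of 100.9 (exact conditional 95% interval 84.8 to 121). GR, a hormone-activated transcription factor called at 43.4% of all genes, was present at 86.0% and 17.9%, an odds ratio of 28.0 (25.2 to 31.2). CTCF, an architectural protein called at 7.54% of all genes, was present at 12.4% and 8.54%, an odds ratio of 1.52 (1.33 to 1.75). With only the widest 50% of Pol2 peaks the CTCF odds ratio was 1.09 (0.977 to 1.21). H3K4me1, found at enhancers and on the shoulders of promoters and called at 65.8% of all genes, was present at 94.9% and 91.5%, an odds ratio of 1.73 (1.48 to 2.02). Its direction turned with the window: within 500 bases of a TSS the H3K4me1 odds ratio was 0.50 (0.438 to 0.568), lower at genes with both. Marks were scored at any TSS, and the median number of TSS was 5 for genes with both and 4 for H3K4me3 without Pol2. Among genes with a single TSS the H3K27ac odds ratio was 53.3 (36.4 to 79.8). The Pol2, H3K27ac, H3K4me1 and GR lists share Input 1, and whether this contributes to their coincidence was not tested.

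**Figure D3:**
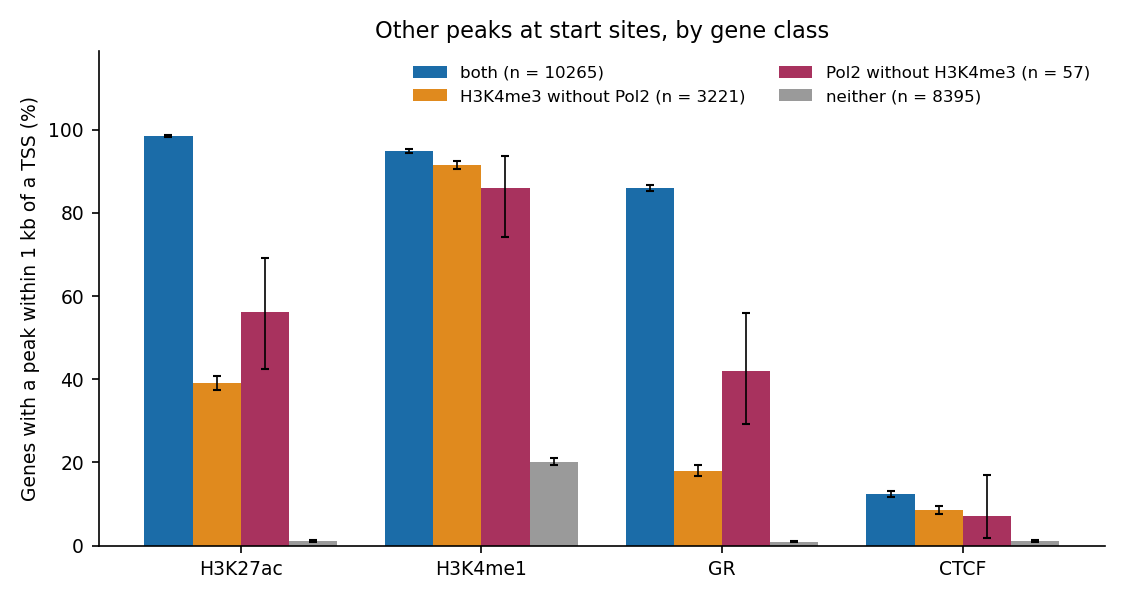
Percent of genes in each class (vertical axis) with an H3K27ac, H3K4me1, GR or CTCF peak within 1 kb of a TSS (horizontal axis), with exact 95% intervals as error bars. H3K27ac is at 98.5% of the genes with both and 39.1% of those with H3K4me3 without Pol2, while H3K4me1 is above 80% in all 3 classes that have a peak.

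The differences in H3K27ac and GR remained within deciles of H3K4me3 fold, but the odds ratios were smaller than the unstratified 100.9 and 28.0. Strength was not equal inside a decile, the lowest of which spanned folds of 1.93 to 9.01. Within deciles of H3K4me3 fold, the Mantel-Haenszel odds ratio of genes with both over genes with H3K4me3 without Pol2 was 19.6 (16.2 to 23.6) for H3K27ac and 9.19 (8.13 to 10.4) for GR. In the lowest decile H3K27ac was at 77.7% of the genes with Pol2 (70.8 to 83.5) and at 16.6% of those without (14.5 to 18.8). In decile 5 the shares were 99.4% and 77.4%. For H3K4me1 and CTCF the stratified odds ratios were 1.18 (0.959 to 1.44) and 1.10 (0.923 to 1.32), and their intervals no longer left out 1.

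The relation of Pol2 to CpG content depended on H3K4me3 strength. A start was called CpG-rich when the 1000 bases around any TSS had an observed over expected CpG ratio of at least 0.6 and a GC content of at least 50%, which held for 51.2% of all genes. It held for 83.6% of genes with both and 65.6% of those with H3K4me3 without Pol2, an odds ratio of 2.68 (2.45 to 2.94). Within deciles of fold the Mantel-Haenszel odds ratio was 0.490 (0.431 to 0.557), in the opposite direction. In the lowest decile 16.2% of the genes with Pol2 were CpG-rich against 51.6% of those without, and in the second 41.2% against 67.3%. The exact interval of the odds ratio lay below 1 in each of the 4 lowest deciles, from 0.182 (0.116 to 0.277) in the lowest to 0.640 (0.443 to 0.911) in decile 4. The values were above 1 in the 6 higher deciles, but the interval left out 1 only in decile 8 (2.93, 1.07 to 6.92) and decile 10 (10.3, 1.79 to 40.4), with 49 and 16 genes without Pol2. With only the stronger 50% of H3K4me3 peaks the stratified value was 0.883 (0.733 to 1.06).

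**Figure D4:**
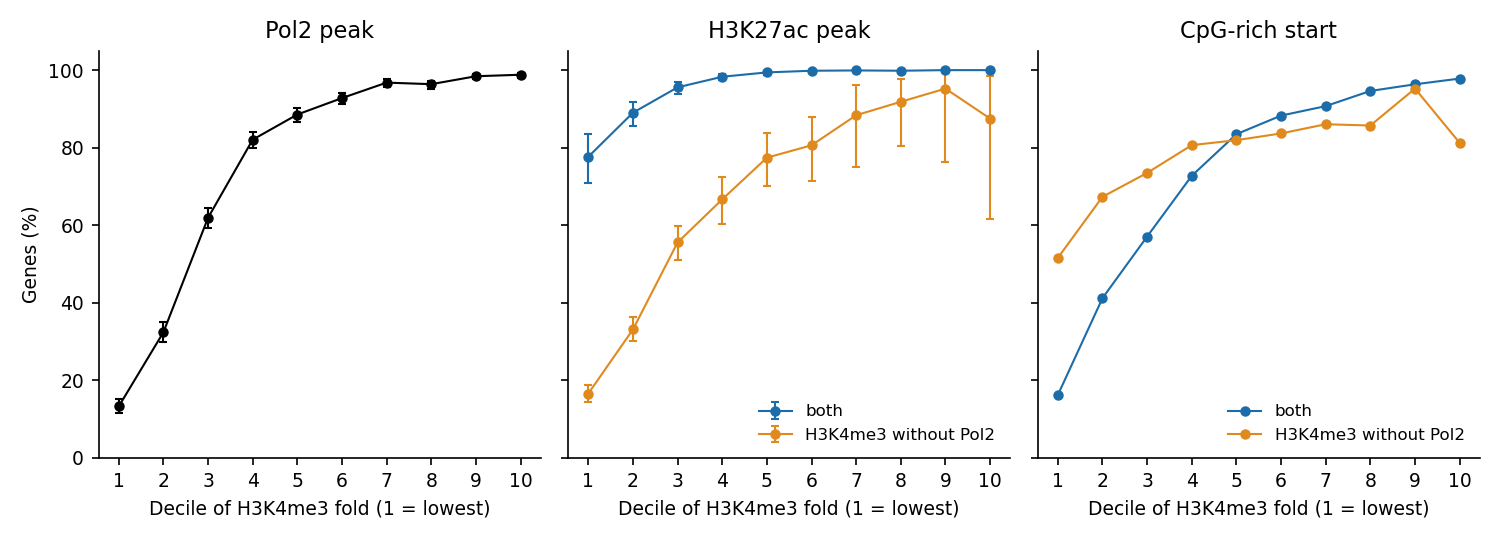
Percent of genes (vertical axis) with a Pol2 peak, an H3K27ac peak or a CpG-rich start by decile of H3K4me3 fold (horizontal axis, 13486 genes), the last 2 split by class, with exact 95% intervals as error bars in the first 2 panels. Pol2 rises from 13.3% to 98.8%, H3K27ac is higher with Pol2 in every decile, and the CpG lines cross between deciles 4 and 5.

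Among genes with both peaks, the 10 with the largest share of their length under Pol2, all fully covered, were Myh4, Atp2a1, Aldoa, Txnip, Acta1, Tnni2, Ddit4, Pgam2, Gadd45g and Tcap. At Myh4 (chr11:67238029-67260446) a single Pol2 peak of 27831 bases met an H3K4me3 peak of fold 13.0. Atp2a1, the calcium pump of fast fibres (chr7:126445858-126463108), lay under a Pol2 peak of 23455 bases with an H3K4me3 fold of 18.1, and Acta1, skeletal actin, had a fold of 13.7. The fast or common sarcomere list as a whole had both peaks in 22 of 24 genes (91.7%, against 46.8% of all genes). The median H3K4me3 fold of these 22 was 18.4, below the 38.5 over all genes with both. The 10 highest H3K4me3 folds were at other kinds of gene: Fgfbp3 with 87.9, Btaf1 with 81.1 and Bod1l with 78.8, followed by Vamp2, Btf3, Rbm26, Dnajc11, Tnrc6a, Lamp1 and Cnot7 down to 75.6. Bod1l, a DNA replication fork protein, had a Pol2 peak of 399 bases and Btaf1 one of 414 bases.

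Lists of genes fell into the classes unevenly (they were chosen with earlier results known, so counts carry no test). Over all genes, the shares to set beside them were 46.8% with both, 14.7% with H3K4me3 without Pol2, 0.26% with Pol2 without H3K4me3 and 38.3% with neither. Every member of 6 lists had both peaks: 34 cytosolic ribosomal proteins, 28 oxidative phosphorylation subunits, 22 glycolysis and glycogen genes, 25 glucocorticoid targets, 20 heat shock genes and chaperones and 14 housekeeping genes, against 46.8% of all genes. Of 34 general transcription factors and Pol2 subunits, 33 had both, Polr2a among them, and Gtf2f2, a TFIIF subunit, had H3K4me3 of fold 33.7 without Pol2. Of 19 clock genes 18 had both, the exception being Npas2, a paralogue of Clock, with H3K4me3 of fold 34.8. Of 26 immediate early genes 21 had both, such as Fos (fold 31.8) and Egr1 (fold 26.8), and Egr2, Egr3, Egr4, Nr4a3 and Fosl1 had H3K4me3 without Pol2. Nr4a3, an orphan nuclear receptor, had its nearest Pol2 peak 1452 bases away, and Egr2 10203 bases away.

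Cell cycle and proliferation genes stood in contrast: all 30 had H3K4me3 and 18 of them lacked Pol2, 60% of the H3K4me3 genes of the list against 23.9% over all genes. The median fold of the 30 was 20.5. In decile 3 of fold, which spans that value, 61.9% of H3K4me3 genes had Pol2, so the 23.9% is not matched for strength. Among the 18 were the replication helicase subunits Mcm2, Mcm3 and Mcm6, the mitotic kinases Cdk1, Plk1, Aurkb, Bub1 and Bub1b, Top2a and Mki67. The other 12 had both peaks, among them the helicase subunits Mcm4, Mcm5 and Mcm7 and the kinase Aurka, so the members of 1 complex were divided between the classes. The median H3K4me3 fold of the 18 without Pol2 was 19.4, and 5 of these 18 carried H3K27ac, against 39.1% of the whole class. Among genes without Pol2 in decile 3 of fold (15.9 to 22.8) the share was 55.6%. Mki67 (chr7:135689784-135716361) had a fold of 28.6, no H3K27ac, and no Pol2 peak within 1040131 bases. Mcm3 had a fold of 35.0 and Mcm6 30.4, also without H3K27ac. DNA repair genes, by comparison, had both peaks in 29 of 32 (90.6%, against 46.8% of all genes), but at a higher median fold of 42.3.

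Many developmental regulators lacked Pol2 as well. Of 50 developmental transcription factors, 26 had H3K4me3 without Pol2 (52%, against 14.7% of all genes), 9 had both (18%, against 46.8%) and 15 had neither (30%, against 38.3%). Of the 35 with H3K4me3, 74.3% lacked Pol2, and their median fold was 9.63. At such folds Pol2 was rare over all H3K4me3 genes, with 13.3% in decile 1 and 32.4% in decile 2. The excess over all genes was therefore not separated from weak H3K4me3. H3K27ac was present at 4 of the 26, against 39.1% of the whole class. Their median fold was 7.89, within the lowest decile, where 16.6% of all genes without Pol2 had H3K27ac. The 4 of 26 were near that share, so no lower acetylation at like H3K4me3 strength can be read. Irx5 had the highest fold of them with 29.7, then Tbx1 with 20.9. Of 31 Wnt, BMP and hedgehog ligands, 16 had H3K4me3 without Pol2 (51.6%) and 5 of those carried H3K27ac, from Wnt5b with a fold of 29.7 to Wnt3 with 3.55. Interferon response genes had H3K4me3 without Pol2 in 9 of 21 (42.9%, against 14.7% of all genes), among them the RNA sensor Ddx58 (fold 27.7), Ifit1 and the chemokine Cxcl10. H3K27ac was present at 6 of these 9, a higher share than the 39.1% of the class, while the other lists in this paragraph were below it. The median fold of these 9 was 10.9, and 33.1% of genes without Pol2 in decile 2 had H3K27ac. The 16 ligands had a median fold of 8.15, and their share was above the 16.6% of the lowest decile.

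**Figure D5:**
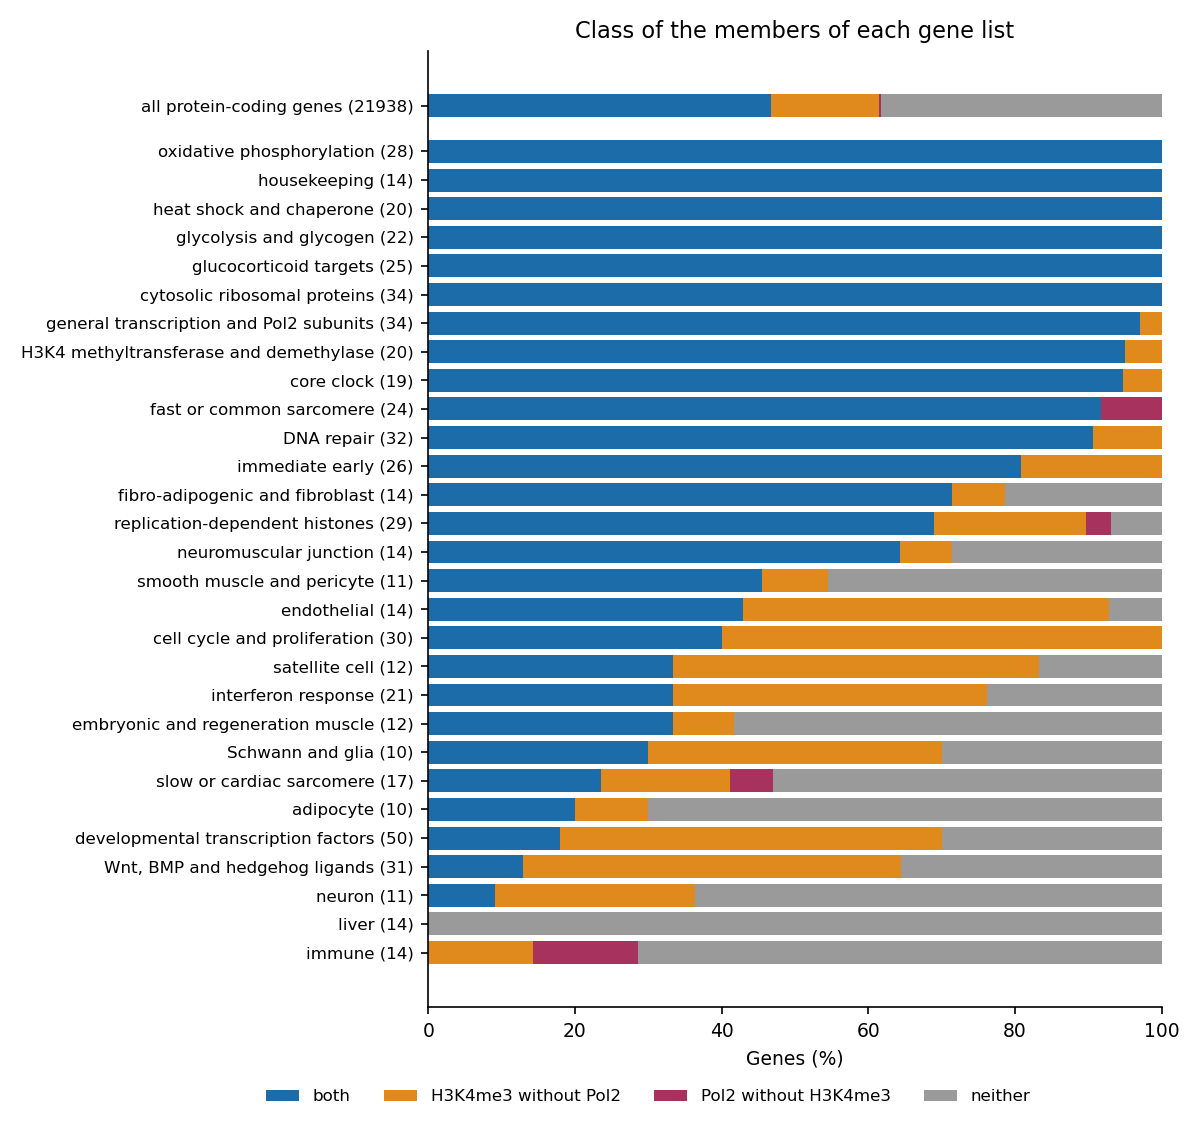
Percent of the members of each gene list (horizontal axis, number of members in brackets) in each of the 4 classes, with all 21938 protein-coding genes on top. The metabolic, ribosomal and housekeeping lists are wholly in the class with both peaks, while cell cycle genes and developmental factors have large shares of H3K4me3 without Pol2.

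Genes of other cell types of muscle varied in class. Of 12 satellite cell genes, 6 had H3K4me3 without Pol2 (50%, against 14.7% of all genes), including Pax7 (fold 8.83), the transcription factor of muscle stem cells, and Pax3 (fold 13.0). Of 14 endothelial genes, 7 had it (50%), including the receptors Kdr (fold 9.22) and Tek (fold 10.1) and the cadherin Cdh5 (fold 6.75), and 6 had both (42.9%, near the 46.8% of all genes). The median fold of the H3K4me3 genes was 13.7 in the satellite cell list and 6.75 in the endothelial list. These shares are not matched for strength, since weak H3K4me3 went with fewer Pol2 peaks over all genes. Of 14 fibro-adipogenic and fibroblast genes, 10 had both (71.4%, against 46.8%), with a median fold of 9.11: Pdgfra, Dcn, Col1a1 and Col3a1 had Pol2 peaks of 178, 193, 217 and 262 bases. Of 14 immune genes, none had both, Csf1r and Mrc1 had H3K4me3 without Pol2 (14.3%, near the 14.7% of all genes) and 10 had neither. Of 17 slow or cardiac sarcomere genes, 4 had both (23.5%, against 46.8%), 3 had H3K4me3 without Pol2, 1 had Pol2 without H3K4me3 and 9 had neither (52.9%, against 38.3%). The 4 with both were Atp2a2, Mb, Mybpc1 and Tpm3. Tnnc1, Myl3 (fold 14.9) and Tnni1 (fold 4.27) had H3K4me3 without Pol2, while Myh7 had neither peak. Igf1, a growth factor, had H3K4me3 of fold 20.3 with H3K27ac and GR, and its nearest Pol2 peak was 285646 bases away.

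The genes with the highest H3K4me3 fold but no Pol2 peak within 1 kb were Cfap36 (63.8), Gatad1 (62.8), Ufm1 (60.3), Nr2f6 and Fsd1l (60.0 each), Tcp11l1 and Lsm5 (58.2 each), Dnaaf2 (57.9), Dnmt1 (56.3) and BC017158 (56.0). H3K27ac was present at 9 of these 10, all but Cfap36, near the 87.5% of all 16 genes without Pol2 in the highest decile of fold. Ufm1, a ubiquitin-like protein modifier (chr3:53853376-53863830), also carried GR, and its nearest Pol2 peak was 399772 bases away. Dnmt1, the maintenance DNA methyltransferase (chr9:20907209-20959888), carried H3K27ac and had Pol2 10253 bases away. Dnaaf2 missed the rule narrowly, with Pol2 at 1065 bases. With the 5′ end of each gene alone, Gatad1 and Dnmt1 had neither peak, so their H3K4me3 peaks lay at other TSS. That no Pol2 peak was called does not show that the polymerase was absent, since the Pol2 list holds positions without a score and the depth is unknown.

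Genes with H3K4me3 without Pol2 can be divided by acetylation. The 1259 genes with H3K27ac had a median H3K4me3 fold of 19.2 and a GR peak in 33.9%. The 1962 genes without H3K27ac had a median fold of 9.03 and a GR peak in 7.70%. CpG-rich starts were at 62.7% and 67.4% of the subsets. The nearest Pol2 peak lay at a median of 50366 bases from the genes of the class, 75 of the 3221 had one between 1001 and 2000 bases, and 153 (4.75%) had a Pol2 peak in the gene body beyond the window, against 11.5% of genes with both. Among genes with both, 156 lacked H3K27ac, and their median H3K4me3 fold was 14.3.

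The 57 genes with Pol2 without H3K4me3 were a mixed set. Their widest Pol2 peak had a median of 161 bases against 273 for genes with both, and 66.7% were narrower than 200 bases against 28.0%. The direction was not stable: the ratio of median widths, genes with both over the 57, was 1.70 (1.40 to 2.07), but 0.936 (0.805 to 1.18) with the peak midpoint required in the window and 0.842 (0.388 to 1.26) with the wider 50% of Pol2 peaks. In 29 the Pol2 peak covered a TSS. In 14 the peak lay in the body of another protein-coding gene, and 42 had a peak that was neither in another gene nor within 1 kb of its TSS. The widest peaks lay over neighbouring genes: the peak of 7247 bases beside Syt8 (chr7:142434850-142440396) lay over Tnni2, the fast troponin I, and the peak of 4305 bases over Pnmt (chr11:98386450-98388181) lay over Tcap, the titin cap. The others of the 10 widest were Gm16253 (921 bases), Ucn (552), Cnih2 (518), Phyhd1 (514), Hpn (431), Chrna10 (426), Necab2 (328) and Inhbe (310).

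Among the 57 were fast myosins. Myh1, the IIx heavy chain (chr11:67200052-67224575), had 2 Pol2 peaks near its start, the wider of 302 bases, with H3K27ac and H3K4me1, and its nearest H3K4me3 peak was 35784 bases away. Pol2 peaks over the whole gene covered 33.1% of its length. Myh2 (chr11:67171027-67197517) had a Pol2 peak of 209 bases at its start and none of the other 4 peaks. Their neighbour Myh4 had both peaks. Myoz2, a slow-fibre Z-disc protein, had a Pol2 peak of 125 bases and no other mark. Chosen after their values were seen, the muscle genes Ankrd2, Mettl21e and Pln, a calcium pump inhibitor, and the immune genes H2-Aa, Ccl2 and Vav1 were also in this class, with Pol2 peaks of 207, 100, 113, 99, 100 and 121 bases. The immune list gave Cd68 (192 bases) and Cd74 (120 bases), and the histone list Hist1h4b (125 bases).

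Compared with genes with both, the 57 had fewer of the other marks. H3K27ac was at 56.1% (42.4 to 69.3), an odds ratio of 0.0198 (0.0111 to 0.0357), and GR was at 42.1% (29.1 to 55.9), an odds ratio of 0.119 (0.0669 to 0.208). H3K4me1 was at 86.0%, an odds ratio of 0.328 (0.153 to 0.807), which under a window of 500 bases was 1.09 (0.528 to 2.55). CTCF was at 7.02%, an odds ratio of 0.531 (0.139 to 1.45), not distinguishable at this number of genes. Compared with genes with neither peak, however, H3K27ac (1.1%) and GR (1.0%) were far more often present, with odds ratios of 110 (60.7 to 202) and 71.7 (38.7 to 131). H3K4me1 (20.2% of genes with neither) gave 24.2 (11.3 to 59.2). CTCF (1.17%) gave 6.39 (1.65 to 17.8), but on 4 of the 57 genes, and its interval held 1 under other settings. Marks were scored at any TSS, and the median number of TSS was 5 for genes with both and 2 for the 57 and for genes with neither. Among genes with a single TSS the H3K27ac odds ratio of Pol2 without H3K4me3 over both was 0.0482 (0.0117 to 0.209).

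Their start sites differed in sequence from those of genes with both. CpG-rich starts were at 4 of the 57 (7.02%), an odds ratio of 0.0148 against genes with both (0.00388 to 0.0402) and 1.09 against genes with neither (0.286 to 2.99). The letters TATAAA, on the gene's own strand 40 to 20 bases before a TSS, were found at 3.97% of all genes, at 5 of the 57 (8.77%) and at 2.68% of genes with both, an odds ratio of 3.49 (1.08 to 8.78). Against genes with neither (6.03%) the odds ratio was 1.5 (0.465 to 3.75), so neither sequence feature told the 57 from those genes at this number. The interval against genes with both held 1 with a window of 2000 bases (0.656 to 6.84), where windows touched no other gene (0.606 to 10.1), with a single TSS (0.0775 to 26.1), with the wider 50% of Pol2 peaks (0 to 10.6) and without the 15 genes whose Pol2 peak lay in or near another gene (0.984 to 10.7). Genes with both and genes with H3K4me3 without Pol2 had TATAAA at 2.68% and 2.67%, an odds ratio of 1.0 (0.782 to 1.30), but at 0.661 (0.494 to 0.892) from RefSeq start sites.

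Gene neighbourhoods differed between genes with both and H3K4me3 without Pol2. The TSS windows touched another protein-coding gene in 22.7% of all genes, in 32.5% of genes with both, in 16.1% of those with H3K4me3 without Pol2 and in 40.4% of those with Pol2 without H3K4me3. Genes with both over H3K4me3 without Pol2 gave an odds ratio of 2.51 (2.26 to 2.78). Pol2 without H3K4me3 over genes with both gave 1.40 (0.787 to 2.46), which does not pass, and 0.586 (0.501 to 0.683) with the stronger 50% of H3K4me3 peaks. Over genes with neither (13.2%) it gave 4.46 (2.50 to 7.83). Among genes whose windows touched no other gene, 71.9% of H3K4me3 genes had Pol2 against 76.1% of all H3K4me3 genes, and 34 genes had Pol2 without H3K4me3.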

How the data were processed

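ChIP-seq of skeletal muscle nuclei gave 1 library for each of 6 antibodies and 2 inputs. Per the submitters' processing notes, the tools were Bowtie 1.0.0, bcl2fastq 2.17.1.14 and MACS2 (no version), and the build mm10; roles and thresholds are not given. The authors deposited peak positions (start and end) for all lists and, for H3K4me3, the summit, a linear fold (ratio) over background and significance as −log10 q-value beside −log10 p-value. The file has no column names, so the columns were identified by their contents. The lists used had 20192 Pol2 and 19811 H3K4me3 peaks, and 8 mitochondrial peaks of these were left out. Depth is unknown, so its effect on which peaks were called is too.

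From the deposited positions, peaks within 1 kb of any of 93513 TSS of 21938 protein-coding genes (GENCODE vM21, all transcripts) were assigned with Python 3.11.15, pandas 2.3.3 and scipy 1.17.1. The code was tested on simulated data. Shares carry exact Clopper-Pearson intervals and class comparisons conditional odds ratios with exact intervals, both at 95%; stratified odds ratios are Mantel-Haenszel estimates with approximate intervals; a difference passes where the interval leaves out 1. With 1 library per antibody no p-value is given. The libraries were amplified by PCR and carry no molecular identifiers, and the intervals cover counting of genes only.

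The members and gene lists were chosen with earlier results of these data known; 601 of 602 listed symbols matched. Genes named are a fixed set, list members, the 10 highest H3K4me3 folds in each class that has them, the 10 widest Pol2 peaks without H3K4me3 and the 10 genes with both most covered by Pol2. Fold-decile strata for marks other than H3K27ac were added after the data were seen. Alternatives were other windows, TSS sets, peak subsets and gene subsets.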

Additional observations from a re-analysis of the deposited data

How the results depend on the processing

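The 57 genes with Pol2 without H3K4me3 limit every comparison made on them. The depth of the libraries is unknown, and neither weak peaks nor variation between animals can be judged. Of 176 recomputations of the 17 odds ratios whose interval left out 1, 171 kept their direction and 152 also kept an interval without 1. Of 53 recomputations of the other 5 odds ratios, 13 fell on the other side of 1. For H3K27ac the odds ratio of genes with both over H3K4me3 without Pol2 ranged from 53.3 to 243, and for GR from 13.2 to 29.4. The cause of the changes below was not tested, except that smaller sets of genes widen the intervals. No paired analysis was possible because each antibody gave 1 library.

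With a window of 500 bases the H3K4me1 odds ratio turned to 0.50 for genes with both over H3K4me3 without Pol2. For Pol2 without H3K4me3 over genes with both it was 1.09, but with an interval of 0.528 to 2.55 no turn can be read. The CTCF odds ratio of Pol2 without H3K4me3 over neither was 4.30 (0.498 to 16.9), against 6.39 as reported. With 2000 bases, the odds ratios of Pol2 without H3K4me3 over both were 0.321 for H3K4me1, 2.51 for TATAAA and 2.12 for touching another gene. With the 5′ end of each gene alone, 8 of 67 named genes changed class. Ckm became H3K4me3 without Pol2, and Cnot7, Dnmt1, Gatad1, Mb, Nr3c1, Pecam1 and Syt8 became neither. Under this setting 75.2% of H3K4me3 genes had Pol2. The H3K4me1 odds ratios were 1.03 (both over H3K4me3 without Pol2) and 0.501 (Pol2 without H3K4me3 over both), and CTCF over neither was 4.32. With protein-coding transcripts only, that CTCF value was 4.27, and with RefSeq starts 3.35, where TATAAA turned to 0.661 for both over H3K4me3 without Pol2. The intervals of these CTCF values over neither all held 1, such as 0.389 to 13.1 with RefSeq starts.

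With the peak midpoint required in the window, 163 genes had Pol2 without H3K4me3, and 98.4% of Pol2 genes had H3K4me3. The H3K4me1 odds ratio of both over H3K4me3 without Pol2 turned to 0.464, and the CpG odds ratio of Pol2 without H3K4me3 over neither was 6.93. The ratio of median Pol2 widths, both over Pol2 without H3K4me3, was 0.936, with an interval that holds 1 (0.805 to 1.18). Ckm, Aldoa, Atp2a1 and Myh4 then lost their wide Pol2 peaks, whose midpoints lay outside the window.

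With the stronger 50% of H3K4me3 peaks, 857 genes had H3K4me3 without Pol2 and 1022 the reverse. Then 91.6% of H3K4me3 genes had Pol2 and 90.1% of Pol2 genes had H3K4me3. Over genes with both, the odds ratios of Pol2 without H3K4me3 were 0.737 for CTCF and, turned, 0.586 for touching another gene. Over neither, CpG was 2.80, and the ratio of median H3K4me3 folds was 1.47. Of 67 named genes, 14 changed class, among them the muscle genes Acta1, Atp2a1, Myh4, Tcap, Tnni2 and Tnnt3, which became Pol2 without H3K4me3.

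With the wider 50% of Pol2 peaks, 6841 genes had both, 6645 H3K4me3 without Pol2 and 14 Pol2 without H3K4me3. Then 50.7% of H3K4me3 genes had Pol2 and 99.8% of Pol2 genes had H3K4me3. CTCF was 1.09 for both over H3K4me3 without Pol2 (0.977 to 1.21) and 6.35 for Pol2 without H3K4me3 over neither (0.148 to 43.0). TATAAA was 0 for Pol2 without H3K4me3 over both, but with an interval of 0 to 10.6 on these 14 genes no turn can be read. Touching another gene was 3.62 over neither (0.951 to 12.0). The ratio of median folds was 1.88. That of median Pol2 widths was 0.842, but the setting selects on width, so no turn can be read.

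Among genes with a single TSS, 968 had both, 544 H3K4me3 without Pol2 and 11 Pol2 without H3K4me3. Then 64.0% of H3K4me3 genes had Pol2 and 98.9% of Pol2 genes had H3K4me3. H3K4me1 was 1.28 for both over H3K4me3 without Pol2. For Pol2 without H3K4me3 over both, H3K4me1 was 0.536 and TATAAA 3.48. For Pol2 without H3K4me3 over neither, touching another gene was 3.22 (0.689 to 12.7). CTCF over neither was 0, but with an interval of 0 to 85.5 on these 11 genes no turn can be read. The ratio of medians was 3.35 for fold and 1.38 for Pol2 width.

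Where windows touched no other gene, 34 genes had Pol2 without H3K4me3, 71.9% of H3K4me3 genes had Pol2, and over both H3K4me1 was 0.363 and TATAAA 3.12. Leaving out the 15 genes whose Pol2 peak lay in or near another gene gave TATAAA 3.82 over both and touching another gene 2.06 (0.901 to 4.31) over neither. This last setting was chosen after seeing the data.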

Other observations

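The lists held further genes of known function that the account above did not name. Genes of the neuromuscular junction had both peaks in 9 of 14 (64.3%, against 46.8% of all genes), and Chrna1, Chrnd, Chrne and Colq had neither. Ache, the acetylcholinesterase of the synapse, had H3K4me3 of fold 15.9 without Pol2, with H3K27ac, GR and CTCF. Musk, the receptor kinase that organizes the synapse, had both peaks with a fold of 12.3 and a Pol2 peak of 112 bases. The 3 Chrn genes encode subunits of the muscle acetylcholine receptor, and Colq encodes the anchor of the synaptic esterase. Of 20 H3K4 methyltransferase and demethylase genes 19 had both, and Kdm5d had H3K4me3 of fold 20.3 without Pol2. Myog, a myogenic factor, had H3K27ac without Pol2 or H3K4me3 within 1 kb, while Myod1 had both with a fold of 25.3. Of 29 replication-dependent histone genes, 20 had both (69.0%) and 6 had H3K4me3 without Pol2 (20.7%, against 14.7% of all genes). Genes of the same histone type can be similar in sequence, and whether reads were split between them was not tested.

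Among the 156 genes with both peaks but no H3K27ac, the highest H3K4me3 folds were at Sumf1 (46.1), Poglut1 (43.4) and Zfp940 (38.6), with Pol2 peaks of 124, 214 and 132 bases. They were chosen after their values were seen.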
